A study of Arabidopsis thaliana with 16 samples.

Results

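In dark-grown Arabidopsis seedlings, 267 of the 22746 non-control probe sets differed between shoot apex and cotyledon in the dark and had almost the same level in both tissues after 6 h of light. The 267 fall into 174 probe sets that were higher in the dark apex and 93 that were higher in the dark cotyledon. They were chosen on v, the log2 of the deposited signal with signals below 20 raised to 20. Both dark arrays of one tissue had to exceed both dark arrays of the other by at least 1.5 in v, and the tissue means of v at 6 h had to differ by at most 0.5. The dark and 6 h arrays therefore chose the members, and every dark gap and every change from the dark is given as a description without a test. By the dark criterion alone, 440 probe sets were apex-high and 267 cotyledon-high, so 39.5% and 34.8% of them met the 6 h criterion. The annotation paired 87 apex-high members with 1 gene each (85 loci), 1 with several genes and 86 with none. Among the cotyledon-high members it paired 54 with 1 gene, 4 with several and 35 with none.

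All plants were Landsberg erecta, with no mutant or transgene among the samples used here. Stratified seeds were exposed to light of 100 µmol m-2 s-1 for 30 min to start germination, and seedlings spent 3 days in darkness at 21 °C on medium without sucrose before transfer to light. Shoot apices were taken from dark seedlings and from seedlings given 1 h or 6 h of light, with 2 arrays for each of these 3 groups, and as 1 array each from seedlings given 2, 24, 48 or 72 h of light. The apices at 48 and 72 h also held growing leaf primordia. Cotyledon blades, cut without petiole and tip, came from the dark, 1 h and 6 h seedlings, again as 2 arrays for each group. Every sample pooled the dissected tissue of many seedlings from several plates and experiments, with 1 tissue taken from a seedling. No seedlings kept in darkness to the later times were among these samples, so light, age and time of day cannot be told apart.

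In a seedling grown in darkness the shoot meristem makes almost no leaves, while the cotyledons use up their stored oil and protein and hold plastids without chlorophyll. Light starts leaf initiation at the apex and turns the cotyledons into photosynthetic leaves. Plant cells short of sugar are known to raise transcripts for the breakdown of amino acids, among them leucine, and for the SnRK1 kinase system that senses low energy. Growing tissue in turn makes many transcripts for ribosomal proteins of the cytosol and the plastid.

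The arrays had been scaled by the submitters to a common trimmed mean. The ratio of the 3' to the 5' GAPDH control was 5.40 on apex 6 h replicate 2, 0.83 to 1.85 on the remaining apex arrays and 1.73 to 4.72 in the cotyledon. Applied without apex dark replicate 2 and apex 6 h replicate 2, whose pairs correlated least (r = 0.897 and 0.893), the rule gave 206 apex-high and 109 cotyledon-high probe sets, of which 120 and 55 were members. Leaving out a dark array only loosens the rule and cannot remove a member, so the larger totals are no sign of stability. The annotation paired only 7 of the 32 tissue markers looked up with a probe set of their own, and none of the 7 was a member. The other markers may lie among the probe sets without a gene name or with several genes. Whether any of them was a member could therefore not be seen. The meristem genes CLV3 and UFO read no higher than 32.7 and 10.6 signal units on any array, so they could not check the identity of the apex. Another meristem gene, LAS, read 33.2 and 63.4 in the dark apex and 48.6 and 30.2 in the dark cotyledon, so the tissues overlapped. At 1 h LAS read 45.7 and 58.1 in the apex against 19.9 and 6.83, and at 6 h 43.7 and 35.8 against 19.4 and 20.4. ICL, the isocitrate lyase of stored-oil use, read 3667 and 3986 in the dark apex and 8523 and 8720 in the dark cotyledon. In pooled tissue, fewer cells of a type and less RNA per cell cannot be told apart.

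By the medians, the apex moved more than the cotyledon in both sets. For apex-high members the median signal was 204 and 185 on the dark apex arrays, 76.2 and 62.6 at 1 h, 72.5 at 2 h and 57.2 and 44.1 at 6 h. It was 29.4 and 31.5 in the dark cotyledon, 38.2 and 39.8 at 1 h and 50.4 and 43.8 at 6 h. The median change of the apex from the dark was -1.27 at 1 h and -1.83 at 6 h in v, against 0.06 and 0.09 in the cotyledon. The median over all 18237 tested probe sets was 0.00 for each of these 4 changes. For cotyledon-high members the median apex signal was 116 and 126 in the dark, 210 and 288 at 1 h, 254 at 2 h and 331 and 376 at 6 h. Their median cotyledon signal lay between 480 and 560 on all 6 cotyledon arrays. The median apex change was 0.95 at 1 h and 1.499 at 6 h, and that of the cotyledon was -0.13 and -0.22.

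**Figure D1:**
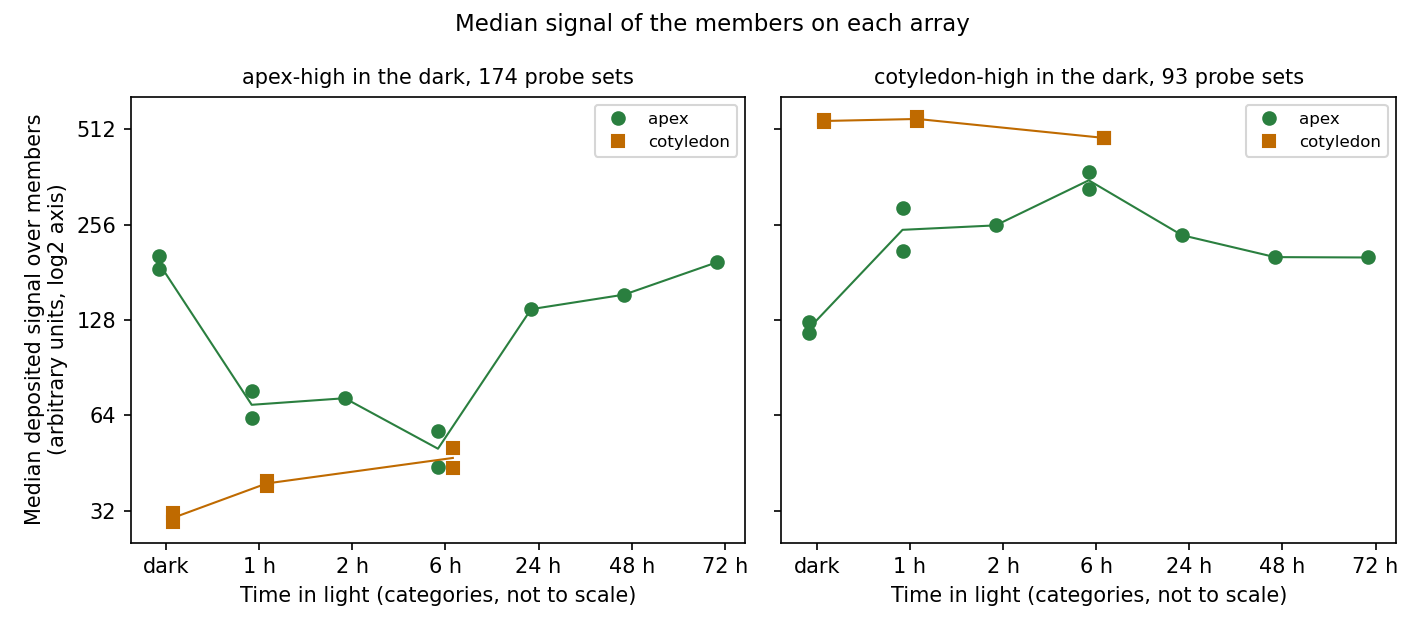
Median deposited signal over the members on each array (log2 axis), against time in light drawn as categories, for 174 apex-high and 93 cotyledon-high probe sets. Each point is 1 array, lines join the geometric means of the arrays of a group, and the cotyledon was sampled only up to 6 h. In the left panel the apex drops from 204 and 185 in the dark to 57.2 and 44.1 at 6 h, in the right panel it climbs to 331 and 376, and the cotyledon curves are flatter.

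A tissue was counted as having moved when its mean v changed by at least 1 between the dark and 6 h, and rose and fell are used of changes from the dark in this sense, without a test. Among apex-high members, only the apex fell in 100 (57.5%), only the cotyledon rose in 31 (17.8%), both fell in 23, both converged in 11, both rose in 8 and neither moved in 1. Among cotyledon-high members, only the apex rose in 63 (67.7%), only the cotyledon fell in 13 (14.0%), neither moved by that much in 10, both converged in 3, both rose in 3 and both fell in 1. With the members kept and apex 6 h replicate 2 left out, the apex alone fell in 92 apex-high members and alone rose in 61 cotyledon-high members. In 49 apex-high and 5 cotyledon-high members the lower tissue was at or below 20 on both dark arrays, so the dark gap is a lower bound. A fall of the lower tissue could not be counted in these members, nor where its dark mean v lay less than 1 above the floor. On the 2 dark cotyledon arrays, 62 and 63 of the 174 apex-high members were at or below 20. How many apex-high members fell in the apex alone, rather than in both tissues, is therefore partly set by the floor. All 4 arrays at 6 h were at or below 20 for 25 apex-high and 3 cotyledon-high members, whose levels at 6 h have no order.

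**Figure D2:**
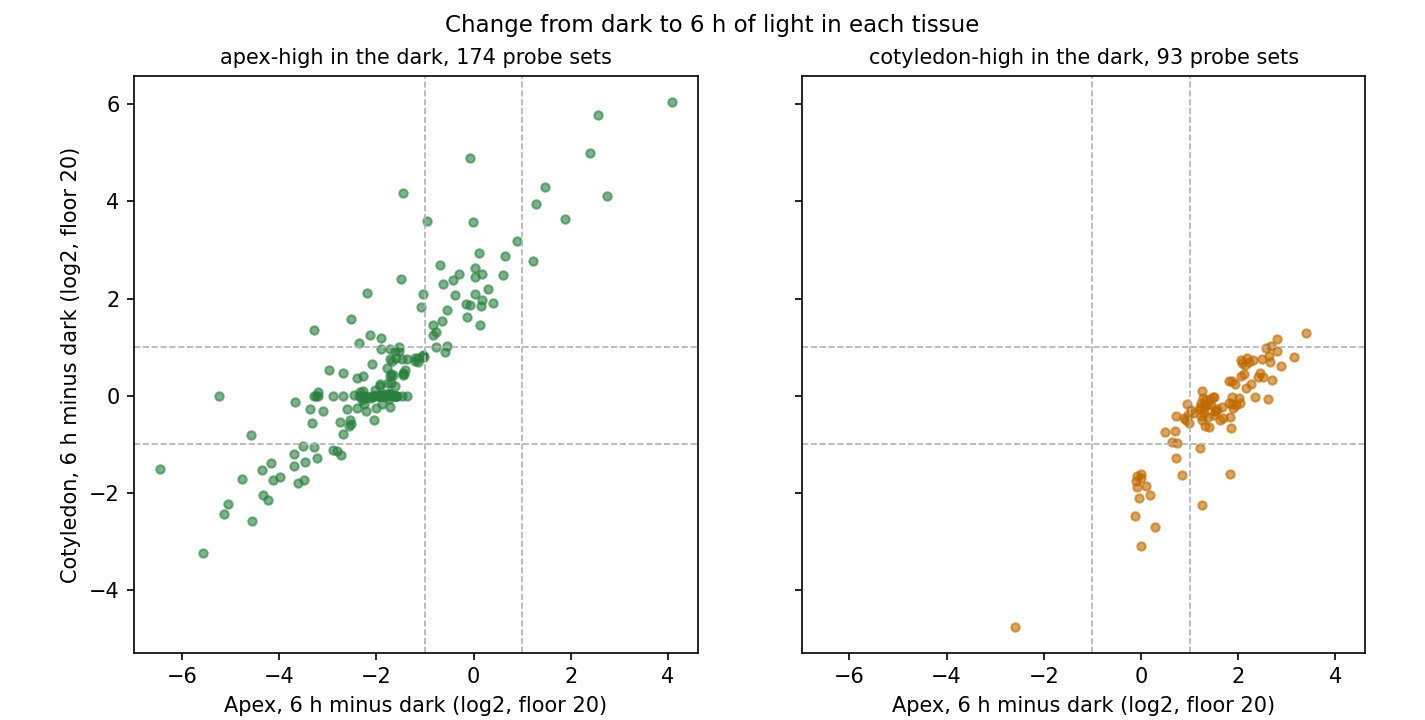
Change in log2 signal (floor of 20) from dark to 6 h of light in the apex (horizontal) and the cotyledon (vertical), 1 point for each member, with dashed lines at -1 and 1. Most apex-high members lie left of -1 with little change in the cotyledon (100 of 174), a smaller set rises along the vertical axis (31), and most cotyledon-high members lie right of 1 (69 of 93). The diagonal spread follows from the choice of members, since a closed gap requires unequal changes of a set size.

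The dark gap of apex-high members had a median of 2.19 (range 1.57 to 5.95) and that of cotyledon-high members a median of 2.01 (1.55 to 3.94). At 6 h the median difference still toward the higher dark tissue was 0.02 for apex-high and 0.32 for cotyledon-high members. Nearest to the threshold of 1.5, taken as the closest pair of dark arrays, a probe set without a gene name had 1.501 inside and AT1G28240 had 1.496 outside on the apex-high side. On the cotyledon-high side AT1G14780 had 1.505 inside, and AT4G34265 had 1.497 outside. Nearest to the 6 h limit of 0.5, apex-high probe sets without a gene name differed by 0.489 inside and 0.502 outside, and on the cotyledon-high side a probe set without a name had 0.4995 inside and AT2G44640 had 0.5003 outside.

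Several apex-high members with the widest dark gaps had lost most of their apex signal at 1 h. The RING-type ubiquitin ligase gene ATL8 read 286 and 236 in the dark apex, 15.6 on both apex arrays at 1 h and 16.4 and 39.9 at 6 h. In the cotyledon its signals lay between 8.67 and 22.2 throughout, so its dark apex level was at least 13.0-fold that of the cotyledon. AT2G20670, of a family of unknown function (DUF506), read 1772 and 2222 in the dark apex, 72.7 and 49.0 at 1 h and 552 and 217 at 6 h. Its cotyledon signals were 121 and 114 in the dark, 69.6 and 101 at 1 h and 189 and 658 at 6 h, so at 1 h the tissues overlapped and at 6 h both had climbed. HIS1-3, a linker histone known to respond to drought, read 111 and 150 in the dark apex and between 1.47 and 7.75 on the 4 apex arrays at 1 h and 6 h. In the cotyledon HIS1-3 was near 20 on 1 dark array and lower on the others, and at 6 h both tissues were below background. AT3G20340 read 353 and 312 in the dark apex, 7.19 and 5.18 at 1 h and about 26 at 6 h on both arrays. SWEET16, a sugar transporter of the vacuole membrane, was dimmer, with 70.9 and 84.3 in the dark apex and 27.0 and 27.6 at 1 h against cotyledon signals no higher than 26.2.

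Other members kept a raised apex signal at 1 h and lost it by 6 h. WAG2, a protein kinase of the AGC class that acts on auxin transport, read 106 and 108 in the dark apex, 66.7 and 86.9 at 1 h, 40.3 at 2 h and 32.2 and 16.1 at 6 h. No cotyledon array exceeded 15.8 for WAG2. AT5G42860 read 79.8 and 81.3 in the dark apex, 80.5 and 71.1 at 1 h, 43.5 at 2 h and 0.813 and 4.06 at 6 h, and no cotyledon array exceeded 2.35. AT4G37220, of a cold acclimation protein family (WCOR413), read 246 and 221 in the dark apex, 83.8 and 42.2 at 1 h and 32.5 and 19.1 at 6 h, and no cotyledon array exceeded 17.6. In these genes the apex came down toward the background level at which the cotyledon had been throughout, and no difference could be measured below that level.

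The 23 apex-high members that fell in both tissues include genes of leucine breakdown and energy sensing. MCCA, the biotin-bearing subunit of methylcrotonyl-CoA carboxylase, read 1583 and 1907 in the dark apex, 155 and 109 at 1 h, 27.9 at 2 h and 39.9 and 34.2 at 6 h. In the cotyledon MCCA read 276 and 296 in the dark, 673 and 345 at 1 h and 31.7 and 29.0 at 6 h. The cotyledon was thus above the apex at 1 h, and by 6 h both tissues had dropped well below their dark levels. MCCB, the other subunit of the same enzyme, read 1616 and 2094 in the dark apex, 398 and 366 at 1 h and 169 and 453 at 6 h. Its cotyledon signals were 525 and 523 in the dark, 902 and 728 at 1 h and 247 and 203 at 6 h. AKINBETA1, a regulatory beta subunit of SnRK1, read 1533 and 1628 in the dark apex, 200 and 168 at 1 h and 58.6 and 121 at 6 h, against 441 and 339, 427 and 181, and 107 and 72.4 in the cotyledon. At 1 h the AKINBETA1 signals of the tissues overlapped. AT4G25580, of a family related to the cold-induced protein CAP160, fell from 683 and 719 in the dark apex to 10.1 and 16.6 at 6 h, and from 116 and 100 to 15.6 and 12.7 in the cotyledon. AT5G57655, a xylose isomerase, fell from 1024 and 851 to 68.1 and 30.7 in the apex and from 97.8 and 181 to 37.1 and 57.8 in the cotyledon.

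In 31 apex-high members the cotyledon rose to the level of the apex, and in 8 more both tissues rose, the cotyledon by more. AT3G06070 held between 333 and 457 on the apex arrays of the dark, 1 h and 6 h groups. Its cotyledon signal was 31.3 and 36.5 in the dark, 81.4 and 151 at 1 h and 528 and 311 at 6 h. AT2G45180, of a lipid-transfer and protease-inhibitor family, read 1934 and 1356 in the dark apex, 1380 and 1129 at 1 h and 3050 and 6549 at 6 h, against cotyledon signals of 178 and 450, 433 and 409, and 5444 and 5628. The tissues did not overlap for AT2G45180 in the dark or at 1 h and did so at 6 h. AT3G54400, of an aspartyl protease family, went from 394 and 281 to 1201 and 2584 in the apex and from 68.1 and 77.8 to 2163 and 2516 in the cotyledon. AT3G16120, of a dynein light chain family, stayed between 67.5 and 127 in the apex up to 6 h while the cotyledon went from 16.8 and 20.4 to 107 and 103.

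EXPA8 was among the 11 members that converged from both sides. Expansins loosen cell walls during growth. EXPA8 read 545 and 406 in the dark apex, 38.9 and 40.7 at 1 h, 93.5 at 2 h and 306 and 35.1 at 6 h. Its cotyledon signals were 4.94 and 3.91 in the dark, 10.0 and 8.39 at 1 h and 76.3 and 97.6 at 6 h. The 6 h apex arrays of EXPA8 differed widely and lay on either side of the cotyledon arrays, so the closed gap of this gene rests on their mean. DRT100, named for a DNA-damage repair or toleration function, was the 1 apex-high member in which neither tissue moved by 1. It read 1527 and 1839 in the dark apex and 1146 and 1082 at 6 h, against 395 and 527 and then 692 and 1039 in the cotyledon.

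**Figure D3:**
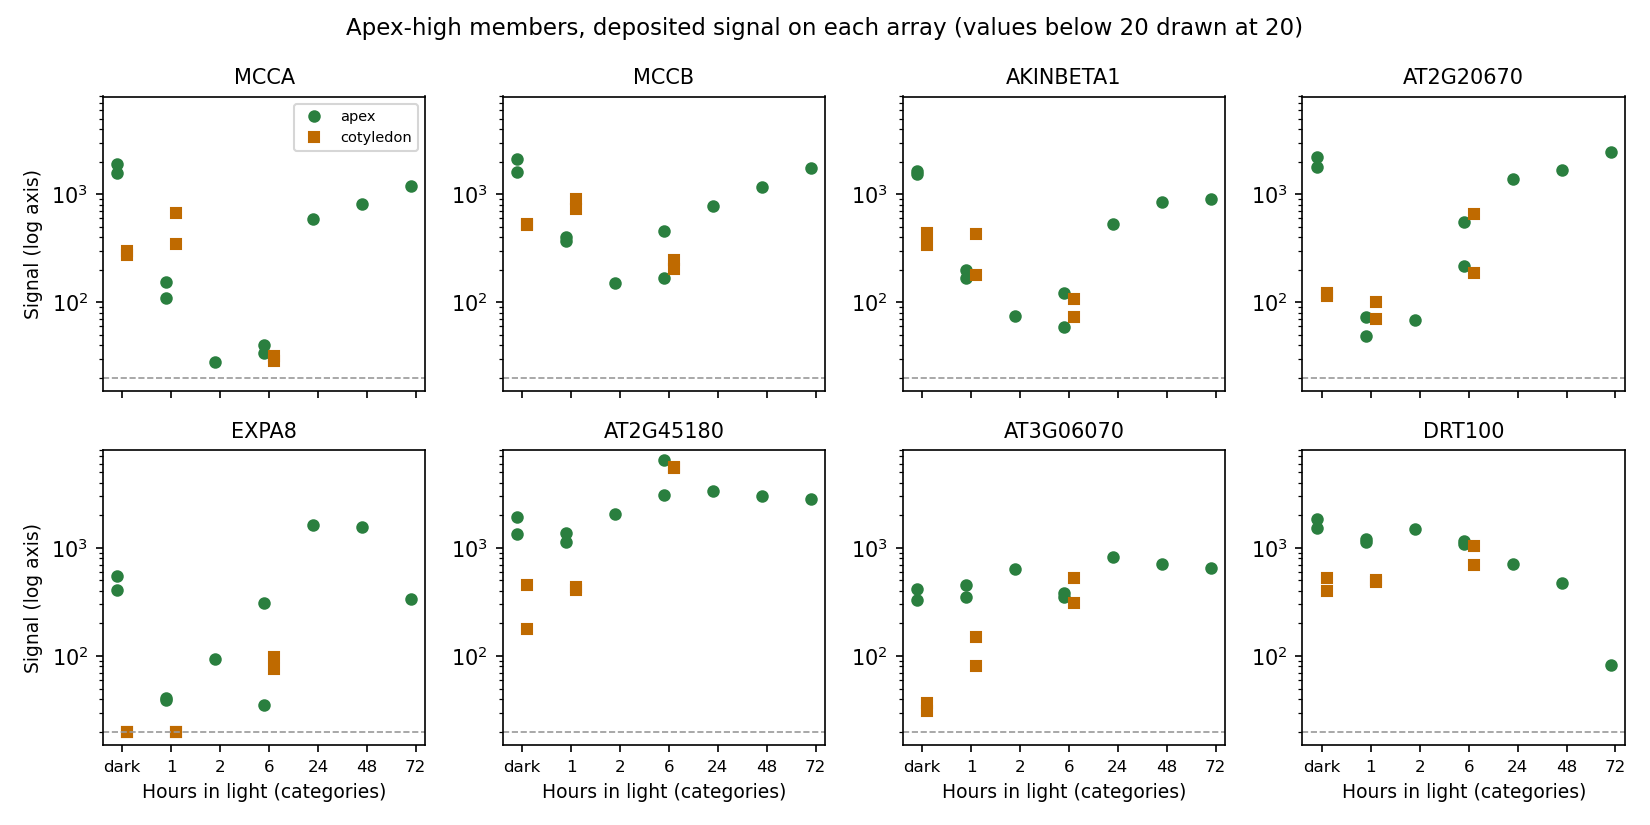
Deposited signal (log axis) of 8 apex-high members on every array, against hours in light drawn as categories, with signals below 20 placed at 20 (dashed line). In MCCA, MCCB and AKINBETA1 both tissues fall by 6 h, in AT2G45180 and AT3G06070 the cotyledon rises to the apex, and the apex signals of MCCA, AKINBETA1 and AT2G20670 are high again at 24 to 72 h.

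The cotyledon-high members mostly closed by a rise of the apex. CRR42, needed to assemble the NDH complex of the chloroplast, read 45.9 and 34.8 in the dark apex, 104 and 131 at 1 h, 213 at 2 h and 217 and 306 at 6 h. The cotyledon stayed between 256 and 330 for CRR42, above the apex arrays of the same time in each group, but by 6 h only narrowly. AT2G41950 read 91.9 and 82.7 in the dark apex, 213 and 288 at 1 h and 579 and 719 at 6 h, against 511 and 546, 608 and 627, and 837 and 784 in the cotyledon. AT2G36145 rose in both tissues, from 75.8 and 63.4 to 662 and 800 in the apex and from 471 and 355 to 969 and 1036 in the cotyledon. AT5G19750, of the Mpv17/PMP22 family of membrane proteins, went from 54.4 and 46.4 to 239 and 211 in the apex, where the 6 h cotyledon arrays read 228 and 361. AT4G32590, of a ferredoxin-like family, went from 23.1 and 21.3 to 193 and 100 in the apex, against 139 and 166 in the cotyledon at 6 h.

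In a smaller group the cotyledon signal fell, alone or, as in AT1G33265, together with a rise of the apex. DPE1, an enzyme that rearranges the sugar chains made when starch is broken down, read 213 and 199 in the dark cotyledon, 152 and 177 at 1 h and 44.3 and 56.2 at 6 h. Its apex signals were 56.5 and 53.7 in the dark, 110 and 155 at 1 h and 61.7 and 63.0 at 6 h, a passing rise that ended near the dark level. AT1G33265, a plastid protein of the FAX family of fatty acid exporters, read 749 and 1104 in the dark cotyledon and 198 and 186 at 6 h, while its apex signal went from 76.7 and 45.8 through 203 and 366 at 1 h to 112 and 181. CML41, a calmodulin-like protein, read 105 and 117 in the dark cotyledon, 25.4 and 29.2 at 1 h and 18.0 and 8.71 at 6 h, with apex signals no higher than 27.4. AT5G66985, a small gene known to be induced by low oxygen, read 87.7 and 326 in the dark cotyledon, 54.8 and 18.0 at 1 h and 7.70 and 4.00 at 6 h, and no apex array exceeded 15.6.

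AT4G10270, of a wound-responsive family and also known to be induced by low oxygen, moved in opposite directions in the tissues. Its apex signal was 34.6 and 43.5 in the dark, 69.7 and 266 at 1 h, 130 at 2 h and 75.7 and 249 at 6 h. Its cotyledon signal was 226 and 604 in the dark, 155 and 88.2 at 1 h and 98.6 and 150 at 6 h. The replicates of this gene lay far apart in the apex at 1 h and 6 h and in the dark cotyledon, and the tissues overlapped at 1 h and 6 h. At 24, 48 and 72 h the apex read 9.99, 10.2 and 21.9.

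**Figure D4:**
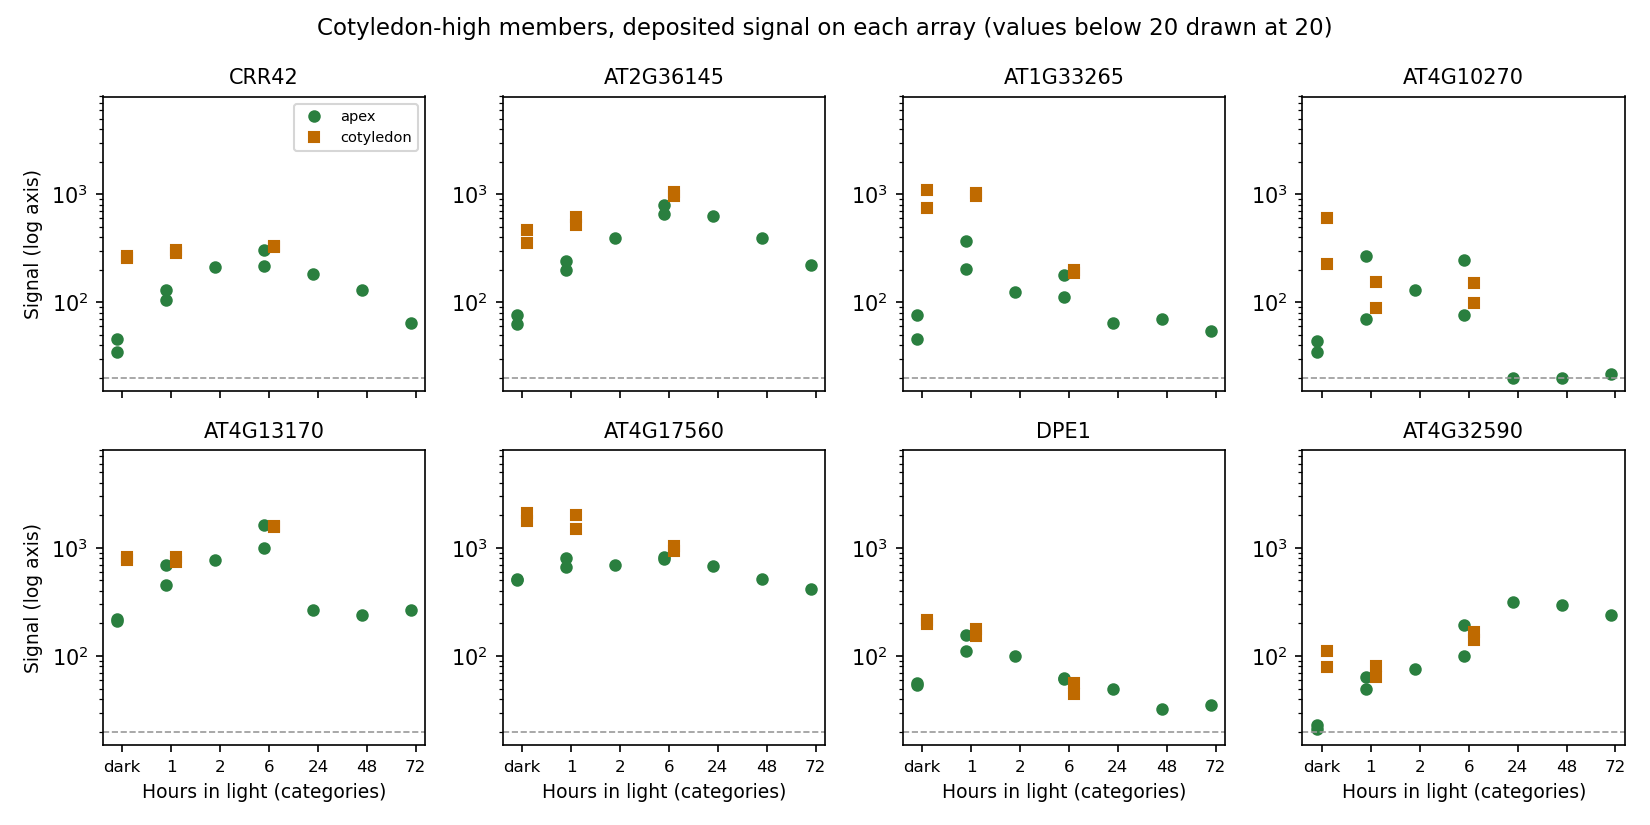
Deposited signal (log axis) of 8 cotyledon-high members on every array, against hours in light drawn as categories, with signals below 20 placed at 20 (dashed line). The apex rises toward the cotyledon level in CRR42, AT2G36145, AT4G13170 and AT4G32590, and at 6 h stays below it in CRR42 and AT2G36145. The cotyledon falls in DPE1 and AT1G33265, where in AT1G33265 the apex also rises, and the tissues cross in AT4G10270.

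The 4 arrays at 1 h were not used to choose the members, so they allow a test of whether the tissues still differed 1 h after transfer. With limma's moderated test across all 18237 tested probe sets and Benjamini-Hochberg adjustment, 54 of the 174 apex-high members (31.0%) were called apex-higher at 1 h, against 4.91% of all tested probe sets. Another 6 (3.45%) were called cotyledon-higher, against 3.79% of all, and 114 were not called. Their median log2 difference was 1.04, and that of all tested probe sets 0.16. Of the 93 cotyledon-high members, 40 (43.0%) were called cotyledon-higher, with a median log2 difference of -0.97. Limma called 0 of them apex-higher, and 0 had an unadjusted p under 0.05 in that direction. The counts rest on few arrays: without apex 1 h replicate 1 they became 14 apex-high and 5 cotyledon-high members, and without cotyledon 1 h replicate 1 they became 29 and 16. Without apex 1 h replicate 2 the apex-high count was 34.

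Among probe sets that met the same dark criterion and did not close at 6 h, 169 of 266 (63.5%) were called apex-higher and 119 of 174 (68.4%) cotyledon-higher at 1 h. The difference between these shares and those of the members was not tested. On the floored scale the median gap of apex-high members at 1 h was 0.62, a median of 26.6% of each member's dark gap, and 60 were already within 0.5. The median gap of cotyledon-high members at 1 h was 0.94 (43.5%), and 22 were within 0.5. The probe sets that did not close had median gaps of 1.56 (68.5%) and 1.14 (54.2%). Since the dark arrays chose all of them, a gap at 1 h below the dark gap is partly fixed by the choice.

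**Figure D5:**
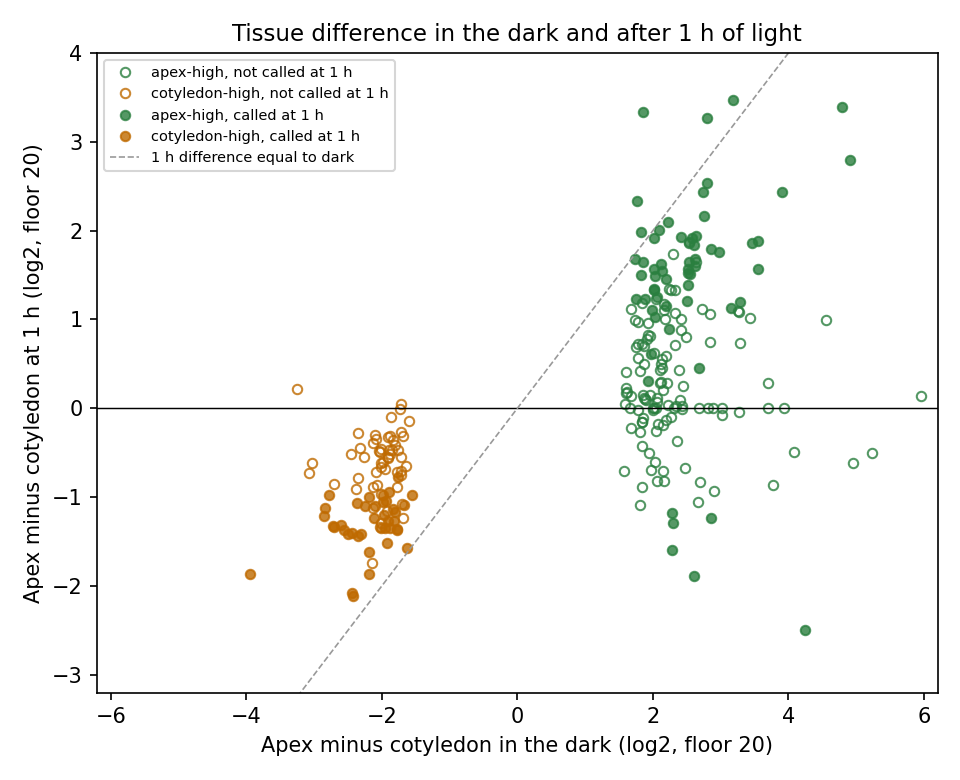
Apex minus cotyledon difference in the dark (horizontal) and at 1 h of light (vertical), both in log2 with a floor of 20, 1 point for each member. Filled points were called different at 1 h by limma (54 apex-higher and 6 cotyledon-higher apex-high members, 40 cotyledon-high members), and the dashed line marks an unchanged difference. Most points lie closer to 0 at 1 h than in the dark, and the apex-high members range from -2.50 to 3.47.

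The number called at 1 h varied between the classes of movement, which was not tested. All 8 apex-high members that rose in both tissues were called apex-higher at 1 h, as were 15 of the 31 in which only the cotyledon rose, 27 of the 100 in which only the apex fell and 1 of the 23 that fell in both. Of those 23, 3 were called cotyledon-higher. AT2G45180 was 1.57 ± 0.41 (log2 difference ± SE, n = 2 and 2) higher in the apex at 1 h (limma adjusted p = 0.0301), and AT3G06070 was 1.86 ± 0.32 higher (adjusted p = 0.0031). The call for AT2G45180 was lost without any 1 of the 4 arrays at 1 h. It was also lost with median centring, with signals below 20 raised to 20 and without the variance trend. AT3G16120 was 1.68 ± 0.31 higher in the apex (adjusted p = 0.0053), a call lost without apex 1 h replicate 2 or cotyledon 1 h replicate 1. WAG2 was at least 3.80-fold higher in the apex (limma adjusted p = 0.00452), and AT5G42860 at least 3.78-fold (adjusted p = 0.00453), the latter lost without apex 1 h replicate 1. Only the apex was above background for these 2 genes.

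MCCA had reversed by 1 h. Its apex minus cotyledon difference was -1.89 ± 0.30 on the log2 scale (limma adjusted p = 0.00196). MCCB lay the same way with -1.09 ± 0.35 and was not called (adjusted p = 0.0743). AT2G30600, of a BTB/POZ domain family, has 2 probe sets among the members, and they disagree at 1 h. One gave -1.18 ± 0.30 (limma adjusted p = 0.0274, lost without either apex array or cotyledon replicate 1 at 1 h) and the other -0.07 ± 0.37 (adjusted p = 0.947). The call of the former was also lost with signals below 20 raised to 20 and without the variance trend. Of the 6 apex-high members called cotyledon-higher, 2 matched 1 gene, MCCA and AT2G30600. AKINBETA1 (-0.60 ± 0.39, adjusted p = 0.426) and AT2G20670 (-0.49 ± 0.50, adjusted p = 0.657) were not called in limma's test, and ATL8 was below background on all 4 arrays at 1 h.

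Among cotyledon-high members matched to 1 gene, the largest called difference at 1 h was that of AT3G50685, whose apex arrays read 451 and 729 and whose cotyledon arrays read 3306 and 1869 (-2.12 ± 0.37, limma adjusted p = 0.00365). AT3G15110 read 121 and 103 against 510 and 440 (-2.08 ± 0.32, limma adjusted p = 0.00172). AT4G23680 read 198 and 152 against 477 and 831 (-1.86 ± 0.30, limma adjusted p = 0.00223). CRR42 (-1.33 ± 0.25, limma adjusted p = 0.00565), AT2G41950 (-1.32 ± 0.22, adjusted p = 0.00306), AT2G36145 (-1.37 ± 0.23, adjusted p = 0.00289) and AT1G33265 (-1.86 ± 0.34, adjusted p = 0.0048) were also called. Without apex 1 h replicate 1, the calls of these 4 genes and of AT3G50685 were lost. For DPE1 (-0.33 ± 0.28, limma adjusted p = 0.577) and AT4G10270 (0.22 ± 0.65, adjusted p = 0.9) no difference was detectable at 1 h with these arrays.

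The apex at 24, 48 and 72 h gives a second measure on arrays that did not choose the members, the mean of these 3 arrays against apex 1 h. Of the apex-high members, 62 (35.6%) were higher late than at 1 h by limma's adjusted p, against 8.57% of all tested probe sets, and 16 (9.20%) were lower, against 7.72%. Their median log2 difference was 0.72, and that of all tested probe sets 0.06. Of the cotyledon-high members, 8 (8.60%) were higher and 26 (28.0%) lower late, with a median of -0.42. Late calls were also counted for probe sets that met the same dark criterion and did not close at 6 h. On the apex-high side 76 of 266 (28.6%) were higher late and 47 (17.7%) lower. On the cotyledon-high side 21 of 174 (12.1%) were higher and 45 (25.9%) lower. The differences from the members were not tested. The low counts depend on single arrays: the 16 apex-high falls became 6 without apex 1 h replicate 1, 7 without replicate 2 and 9 without the 72 h array. The 26 cotyledon-high falls became 14 without apex 1 h replicate 2, and the 8 rises became 3 without apex 1 h replicate 1 and 5 without replicate 2. For comparison with the dark, the median apex-high signal was 138, 154 and 195 at 24, 48 and 72 h, and in 95 of 174 members the late mean was within 1 of the dark mean on the log2 scale. For cotyledon-high members the median apex signal was 237, 202 and 201, between the dark and the 6 h values.

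Several of the apex-high members with low apex signals at 1 h were high again late, although AT4G25580 was not called (0.51 ± 0.36, limma adjusted p = 0.417). AT2G20670 read 1392, 1684 and 2430 in the apex at 24, 48 and 72 h, which was 4.90 ± 0.46 above 1 h (limma adjusted p = 1.22e-05). ATL8 read 137, 554 and 1159, at least 22.3-fold above 1 h (limma adjusted p = 4.14e-06). AT4G01870 read 295, 1014 and 2146 after 39.7 and 20.9 at 1 h (4.91 ± 0.40, limma adjusted p = 4.57e-06). Its 48 and 72 h values exceeded the 388 and 230 of the dark apex. AT3G20340 read 146, 452 and 1073, at least 20.7-fold above 1 h (limma adjusted p = 0.00046). HIS1-3 read 28.7, 76.0 and 353, at least 4.58-fold above 1 h (limma adjusted p = 0.000533). Both probe sets of AT2G30600 were higher late, by 3.59 ± 0.28 (limma adjusted p = 2.69e-06) and 3.32 ± 0.33 (adjusted p = 2.11e-05). EXPA8 read 1629, 1564 and 333, 4.57 ± 0.61 above 1 h (limma adjusted p = 0.000176), so its 24 and 48 h signals were above those of the dark apex and its 72 h signal was not.

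A few apex-high members were lower late. DRT100 read 710, 473 and 82.9 at 24, 48 and 72 h after 1144 and 1197 at 1 h (-1.95 ± 0.23, limma adjusted p = 6.14e-05). PRA1.B4, of a family of prenylated Rab acceptors in membrane traffic, read 16.4, 31.7 and 25.8 after 182 and 137 (-2.73 ± 0.46, limma adjusted p = 0.00112). WAG2 read 11.8, 17.0 and 6.30, so its 1 h level was at least 3.80-fold the late level (limma adjusted p = 0.03). That WAG2 call was lost without either apex 1 h array or without the 72 h array, and also without the variance trend.

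Cotyledon-high members went both ways in the late apex. AT5G37360 read 253, 239 and 222 after 36.1 and 35.6 at 1 h (2.73 ± 0.46, limma adjusted p = 0.00102). AT4G32590 read 318, 299 and 242 after 49.7 and 64 (2.33 ± 0.30, limma adjusted p = 0.000153). DPE1 read 49.3, 32.6 and 35.2 after 110 and 155 (-1.77 ± 0.26, limma adjusted p = 0.000373), back below its dark apex level of 56.5 and 53.7. AT1G33265 was also lower late (-2.13 ± 0.31, limma adjusted p = 0.000405). AT4G10270 was called lower late (limma adjusted p = 0.00146), with 2 of its 3 late arrays below background and a difference of -2.73 with the floor of 20. Of the 13 cotyledon-high members in which only the cotyledon had fallen by 6 h, 9 were lower in the late apex than at 1 h, against 7.72% of all tested probe sets.

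The wider pathways of some members were read from lists of loci drawn up after the members were known. For branched-chain amino acid breakdown 20 loci were listed and 11 single-gene probe sets matched, and for sugar starvation 18 and 3. For ribosomal proteins the numbers were 224 and 129 (cytosol) and 41 and 10 (plastid), and for low oxygen 20 and 9. Loci without a match may lie among the probe sets without a gene name, so the counts cover part of each list. The counts for these lists stand beside 4.91% apex-higher and 3.79% cotyledon-higher at 1 h, and 8.57% higher and 7.72% lower late, over all tested probe sets. Of 11 tested probe sets on the list for branched-chain amino acid breakdown, 2 were apex-high members (MCCA and MCCB). A further 1 member matched AT1G21400 of this pathway together with AT5G34780. The dark apex minus cotyledon differences of the 11 had a median of 0.59 and ranged from -1.68 to 2.60, with 9 above 0 and 2 below. The wide dark gap of the 2 members therefore does not stand for the list. At 1 h, limma called 3 of the 11 on the list cotyledon-higher (MCCA and IVD of leucine breakdown, and D2HGDH outside it) and 0 apex-higher. At an unadjusted p under 0.05 the counts were 7 and 0. The median log2 difference of the list at 1 h was -0.90. IVD, the isovaleryl-CoA dehydrogenase that acts one step before MCCA and MCCB in leucine breakdown, was -1.49 ± 0.32 (limma adjusted p = 0.0101). In the late apex 6 of the 11 were higher than at 1 h and 0 lower, with 8 and 1 at an unadjusted p under 0.05. MCCA was 2.67 ± 0.27 higher late (limma adjusted p = 2.28e-05), MCCB 1.61 ± 0.32 (adjusted p = 0.00342) and ETFQO, which passes electrons from this pathway to the respiratory chain, 2.03 ± 0.34 (adjusted p = 0.000996). From the dark to 6 h the apex was lower in 9 of the 11, and the cotyledon in 8. Of 3 tested sugar-starvation markers, AKINBETA1 was a member, and 2 were higher late than at 1 h (AKINBETA1 by 2.03 ± 0.36, limma adjusted p = 0.00154). The dark differences of the 3 ranged from -0.58 to 2.03, with 2 above 0 and 1 below.

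Of 125 tested probe sets for cytosolic ribosomal proteins, 4 were cotyledon-high members: AT3G44590 and AT4G00810, acidic stalk proteins of the P2 and P1 types, AT4G13170 (L13a) and AT2G45710 (S27). A further 2 members matched several such genes together. AT4G13170 read 218 and 213 in the dark apex, 453 and 693 at 1 h and 997 and 1630 at 6 h, against 820 and 774, 733 and 828, and 1545 and 1607 in the cotyledon. The cotyledon was higher than the apex in the dark in 119 of the 125, and the median apex minus cotyledon difference in v was -0.98 in the dark, -0.24 at 1 h and -0.34 at 6 h. After quantile normalization these medians were -0.79, 0.01 and -0.14, and after median centring -1.17, -0.54 and -0.42, so the size of the 1 h difference depends on the scaling and was near 0 under one of them. Most of the dark gaps of the list were below the 1.5 set for members. At 1 h limma called 0 of the 125 in either direction, with 1 apex-higher and 6 cotyledon-higher at an unadjusted p under 0.05. In the late apex 22 were lower than at 1 h (7.72% over all tested probe sets) and 0 higher, with 47 and 1 at an unadjusted p under 0.05. AT4G13170 (-1.13 ± 0.24, limma adjusted p = 0.00594) and AT3G44590 (-1.18 ± 0.29, adjusted p = 0.013) were among the 22. Both of these calls were lost without apex 1 h replicate 2, and that of AT3G44590 also without the variance trend. Ribosomal protein genes often occur as close copies, so a probe set may read more than 1 of them.

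Of 10 tested probe sets for nuclear-encoded ribosomal proteins of the plastid, 3 were cotyledon-high members, AT4G17560 and AT5G47190 (both L19) and AT1G29070 (L34). The cotyledon was higher than the apex in all 10 in the dark, at 1 h and at 6 h, with median differences of -1.46, -0.89 and -0.54. After quantile normalization the medians were -0.98, -0.53 and -0.28, and after median centring -1.66, -1.18 and -0.62. At 1 h limma called 4 of the 10 cotyledon-higher and 0 apex-higher, with 10 and 0 at an unadjusted p under 0.05. AT4G17560 read 659 and 800 in the apex at 1 h and 2030 and 1507 in the cotyledon (-1.27 ± 0.23, limma adjusted p = 0.00436), a call lost without apex or cotyledon 1 h replicate 1. AT5G47190 was -1.24 ± 0.31 (limma adjusted p = 0.0244) and AT1G29070 -1.09 ± 0.26 (adjusted p = 0.0185), and both calls were lost without replicate 1 or 2 of the apex or replicate 1 of the cotyledon at 1 h. Both were also lost without the variance trend, and that of AT5G47190 with signals below 20 raised to 20. AT4G17560 was 1 of the 10 cotyledon-high members in which neither tissue had moved by 1, with the apex up from 516 and 508 to 817 and 781 and the cotyledon down from 1763 and 2080 to 1046 and 944.

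Of 7 tested genes of a low-oxygen response list, AT4G10270 and AT5G66985 were members. Limma called 0 of the 7 at 1 h, with 0 at an unadjusted p under 0.05, and in the late apex 2 were higher and 1 (AT4G10270) lower. The dark apex minus cotyledon differences of the 7 went both ways (-3.25 to 2.99, 3 above 0 and 4 below), so the 2 members do not stand for the list. From the dark to 6 h the apex was higher in 3, lower in 3 and at background in 1, and the cotyledon was lower in all 7. Oxygen levels were not among the measurements.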

How the data were processed

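The deposited values are signal intensities on a linear scale from 16 ATH1 arrays, made with GCOS and MAS5 per the submitters' processing notes, which state no versions. Their trimmed mean was the same on every array. The intensities were used as deposited, as log2 values, with no further scaling. The 64 control probe sets among 22810 were dropped. Testing required a signal above the 35th percentile of the array on 2 or more arrays, which held for 18237 probe sets. The percentile lay between 12.4 and 18.6, so the rule itself made all 267 members pass through their higher dark tissue. The shares over all tested probe sets also cover probe sets too dim for the rule.

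Tests were two-sided, from limma (3.58.1, run in R 4.3.3). The model had a mean per group (10 groups), an intensity trend in the variance prior (6 residual and 7.618 prior degrees of freedom) and Benjamini-Hochberg adjustment over all tested probe sets within a contrast. A call is an adjusted p under 0.05. Single arrays at 2, 24, 48 and 72 h were assumed to vary like the paired ones. No label says that the 2 arrays of a group came from separate cultures, so the p-values reflect no more than the variation among these samples, and their small number limits the precision. The fit was tested on simulated data. The deposit gave no detection calls, so 20 served as the background level: where a group was at or below 20 on every array, a fold is a lower bound against 20.

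The members, lists and tests were chosen with earlier results of these data known. Lists of 5 pathways by locus were added after the members had been seen. The 30 lists by gene family words could be matched only on gene symbols and synonyms, and 8 of them matched no probe set. Their members were HIS1-3, EXPA8 and SWEET16. Genes were named by a rule: the widest dark gaps overall and for each class of tissue movement, the largest called differences, and up to 4 members of each list. Gene names come from the array's annotation table and the TAIR10.1 annotation, and no sequence is shown. Alternatives covered the limits of the rule, the floor, other scalings, filters and variance priors, a replicate block, leaving out each dark or 6 h array from the rule, and leaving out each 1, 24, 48 or 72 h array from the tests.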

Additional observations from a re-analysis of the deposited data

Results flagged for a closer look

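AT4G10270 moved in opposite directions in the tissues between the dark and 1 h, on every array: the apex by 1.81 and the cotyledon by -1.66 on the log2 scale with a floor of 20. The change of the cotyledon minus that of the apex was -3.47. Both dark and 1 h apex pairs and both cotyledon pairs stood apart in this way, and the difference was not tested, since the dark arrays chose this gene.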

How the results depend on the processing

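The number of members follows from the limits of the rule. With a dark gap of 1 or 2 it was 501 or 77 apex-high and 325 or 19 cotyledon-high, with a 6 h tolerance of 0.25 or 1 it was 103 or 284 and 29 or 216, and with every pairing of 6 h arrays within 0.5 it was 63 and 25. Leaving out 1 array of the rule gave 143 to 304 apex-high and 70 to 187 cotyledon-high probe sets, with the highest counts without cotyledon dark replicate 2 and apex dark replicate 1. Without a dark array the rule is looser and kept every member by construction. Without a 6 h array it kept 120 to 150 apex-high and 55 to 83 cotyledon-high members. The median gap left at 1 h was 0.92 with a floor of 10 and 0.21 with a floor of 40 for apex-high members, and 1.23 with median centring for cotyledon-high members. Leaving out 1 array at 1 h gave 0.36 to 0.87 and 0.76 to 1.13.

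At 1 h the 54 apex-high members called apex-higher became 26 without the variance trend and 14 to 41 without 1 array. The 6 called cotyledon-higher became 12 with median centring, 3 with signals below 20 raised to 20, 1 without the trend and 1 to 9 without 1 array. The 40 cotyledon-high members called cotyledon-higher became 19 without the trend and 5 to 28 without 1 array. In the late apex the 62 apex-high rises ranged from 45 to 62 without 1 array and the 16 falls from 6 to 18. The 8 cotyledon-high rises became 4 with median centring, 5 without the trend and 3 to 12 without 1 array, and the 26 falls 14 to 30. Over all probe sets, median centring turned the 1 h tissue calls from 896 apex-higher and 692 cotyledon-higher (56.4% apex-higher) to 483 and 1155 (29.5%), and the late calls from 52.6% to 36.3% higher. Signals below 20 raised to 20 gave 63.2%. Median centring moved the median log2 difference of all tested probe sets from 0.16 to -0.14 at 1 h and from 0.06 to -0.16 late. The causes were not tested.

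With the replicate number as a block, the 1 h counts were 51, 6 and 40 and the late counts 59, 16, 7 and 25, and 1 named call at 1 h, that of AT5G27290, was lost. The deviations of same-numbered arrays correlated between -0.13 and 0.13 over 15 pairs of groups, with 1 pair over 0.1. In each apex pair, however, the 3' to 5' GAPDH ratio was higher on replicate 2. It was 1.78 against 0.90 in the dark, 1.85 against 0.83 at 1 h and 5.40 against 1.45 at 6 h. In the cotyledon the order went both ways. Whether same-numbered arrays were handled together was not tested. Of 58 calls of named genes, 26 held under every alternative, 11 were lost only without an array and 0 reversed. The planned description of promoter motifs was not run.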
